A study of Mus musculus with 4 samples.

Results

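The regions described here are 8445 accessible sites that lay inside protein-coding genes, away from any gene start, and were called at both stages of limb development that were profiled. Each is a peak of the autosomal E10.5 list that lies more than 1 kb from every start site of a protein-coding gene, overlaps a protein-coding gene body and overlaps a peak of the E11.5 list by at least 1 bp. They made up 8.64% (95% Wilson interval 8.47 to 8.82%) of the 97739 autosomal peaks at E10.5 and 27.0% (26.5 to 27.5%) of the 31262 that were shared between the stages. Below they are called intragenic shared peaks, and the E11.5 peak with the longest overlap is called the partner. The peaks were chosen by position and by the measured overlap of the E10.5 and E11.5 peaks, so their number, width and signal in both lists are given as a description.

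The peaks came from ATAC-seq, in which the Tn5 transposase inserts sequencing adaptors into open chromatin. Both groups were Wild Type mouse embryos, with forelimb and hindlimb cells in the same sample and 2 replicates per stage, E10.5 or E11.5. The stages are those of the sample titles, while the protocol in the labels names the earlier one E10. Limbs were dispersed with trypsin, and the cells were fixed in 1% PFA, lysed and tagged. The labels do not say how many embryos entered a sample, and no group carried a mutation or a treatment. There was 1 peak list per stage for both replicates, so no spread between replicates and no depth could be given. The E10.5 list had 99427 peaks and the E11.5 list 37548, and a rank in one list cannot be set against a rank in the other as a change over time. The intervals printed cover counting error only.

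Enhancers are stretches of DNA that bind transcription factors and raise transcription of a gene that may lie far away. Many of them sit within introns, either of the gene they act on or of an unrelated neighbour, and several limb enhancers are known from introns of genes with no patterning role of their own. Textbook cases are Formin 1, next to the BMP antagonist Gremlin 1, Hdac9, next to Twist1, and Lmbr1, which holds a limb enhancer of the distant Sonic hedgehog gene. An accessible site is a candidate for such an element, and accessibility alone does not tell an enhancer from an insulator, an unannotated start site or another kind of open site.

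Some intragenic shared peaks held the hairpins of microRNAs, and their mature sequences are shown because these transcripts give a named product inside the peaks. Of 919 autosomal hairpins 2.72% lay wholly inside an intragenic shared peak, and of the 618 that overlapped a protein-coding gene 4.05% did, 25 in both cases. All 3 copies of the miR-199 hairpin were among them, each on the strand opposite to a dynamin gene. The mature sequences are from RefSeq for GRCm38.p6, and capitals mark the seed, bases 2 to 8, which pairs with target transcripts. The 3′ arms of miR-199a and miR-199b have the same sequence and so the same seed, CAGUAGU.
miR-199a-5p: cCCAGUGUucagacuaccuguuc
miR-199a-3p: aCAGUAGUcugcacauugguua
miR-199b-3p: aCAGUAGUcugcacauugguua
miR-27b-3p: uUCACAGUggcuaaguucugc
miR-24-3p: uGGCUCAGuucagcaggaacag

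The peak with Mir199b, in Dnm1 (mm10 chr2:32314976-32321416), had a signal value of 31402 at E10.5, and its partner had 5164 at E11.5. Signal value is the authors' total over a peak. Its rank is given as a percent counted from the top of the autosomal list of its stage, so a small percent is a high signal, and the Dnm1 peak stood at 0.0205% and its partner at 7.02%. Dynamin 1 is a GTPase of synaptic vesicle recycling. In Dnm3 the peak with Mir199a-2 (chr1:162216377-162218502) had 12362 and its partner 5456, at ranks of 0.952% and 6.07%. In Dnm2 the peak with Mir199a-1 (chr9:21495914-21497893) had 7419 and its partner 1697, at 4.49% and 30.9%. All 3 hairpins also lay inside the E11.5 partner. Mir214, which is transcribed together with Mir199a-2, lay in an E10.5 peak of signal 1778 (rank 29.3%) that overlapped no E11.5 peak. Mir23b, Mir27b, Mir24-1 and Mir3074-1 shared 1 peak in the overlapping genes Aopep and Fancc (chr13:63299761-63307594), with 18610.5 and a partner of 1463, at 0.188% and 33.9%.

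Peaks far from protein-coding starts can still cover the start of a long noncoding RNA. RefSeq windows of 300 bases, running from 250 before to 50 after an annotated start, gave 153 windows of 135 noncoding RNA genes that lay wholly inside 136 intragenic shared peaks. The sequences of 4 of them are shown because they lie in limb or cartilage genes, or, in Dnm3, beside the microRNA described above. They are from RefSeq for GRCm38.p6, 5′ to 3′ on the plus strand of the chromosome, which is also the strand of each RNA. Capitals mark CANNTG, the E-box letters that bHLH factors such as TWIST1 and HAND2 are known to bind, which read the same on both strands.
Dnm3os in Dnm3 (chr1:162217373-162217672): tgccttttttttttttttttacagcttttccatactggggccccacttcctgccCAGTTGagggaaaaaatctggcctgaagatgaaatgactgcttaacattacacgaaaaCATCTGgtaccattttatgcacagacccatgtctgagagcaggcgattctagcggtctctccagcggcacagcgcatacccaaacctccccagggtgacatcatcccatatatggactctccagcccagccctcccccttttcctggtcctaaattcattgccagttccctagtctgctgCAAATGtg
Gm15222 in Bmp4 (chr14:46387228-46387527): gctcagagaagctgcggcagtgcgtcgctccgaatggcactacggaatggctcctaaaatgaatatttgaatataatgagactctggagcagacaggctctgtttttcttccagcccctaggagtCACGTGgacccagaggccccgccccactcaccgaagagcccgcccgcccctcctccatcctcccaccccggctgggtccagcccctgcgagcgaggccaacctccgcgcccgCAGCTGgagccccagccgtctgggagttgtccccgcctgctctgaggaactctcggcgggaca
Gm31391 in Tcf7l1 (chr6:72677292-72677591): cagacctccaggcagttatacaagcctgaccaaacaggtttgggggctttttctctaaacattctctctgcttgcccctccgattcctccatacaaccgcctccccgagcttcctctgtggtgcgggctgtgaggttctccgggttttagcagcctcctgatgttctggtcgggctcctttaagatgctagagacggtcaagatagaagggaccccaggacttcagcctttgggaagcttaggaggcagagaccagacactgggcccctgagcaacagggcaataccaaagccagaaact
Gm38531 in Sox5 (chr6:144210860-144211159): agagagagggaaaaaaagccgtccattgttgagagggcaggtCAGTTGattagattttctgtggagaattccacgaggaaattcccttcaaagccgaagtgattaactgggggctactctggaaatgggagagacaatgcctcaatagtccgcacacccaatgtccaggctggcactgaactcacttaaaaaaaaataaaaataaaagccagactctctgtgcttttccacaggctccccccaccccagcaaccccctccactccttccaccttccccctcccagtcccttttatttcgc

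The Dnm3os window held 3 matches of CANNTG, that of Gm15222 held 2, that of Gm38531 held 1 and that of Gm31391 held none. Over the 153 windows, 73.9% (66.4 to 80.2%) had the letters, beside 78.4% of all 11588 noncoding RNA windows and 72.3% of all 32851 windows of the table. Their median GC content was 56.3%, beside 48.3% for all noncoding RNA windows. GGGCGG, the GC box bound by SP factors, was present on either strand in 38.6% (31.2 to 46.5%) of them, beside 16.3% of all noncoding RNA windows, 35.7% of all windows, and 23.3% (16.9 to 31.2%) of 133 windows inside intragenic peaks of the E10.5 list alone. TAATTA, a core bound by homeodomain factors, was in 3.27% and TATAAA in 7.84%, beside 6.68% and 15.5% of all noncoding RNA windows. Matches of different motifs may overlap, and a match is a description of the letters only.

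Overlap with the later list was counted by place in the genome. Of all autosomal E10.5 peaks 32.0% overlapped an E11.5 peak, and of the 42001 distal peaks inside genes 20.1% (19.7 to 20.5%) did. The share was 24.5% (24.0 to 24.9%) of 40235 distal peaks between genes and 83.7% (83.1 to 84.3%) of 15503 peaks within 1 kb of a start site. The share inside genes was 51.3% with as many E10.5 as E11.5 peaks, kept by signal, and 9.03% with a reciprocal overlap of 50%. Seen from the later list, 88.0% (87.4 to 88.6%) of its 10628 distal intragenic peaks overlapped an E10.5 peak. The partner was itself distal and intragenic in 98.7% (98.4 to 98.9%) of cases.

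Intragenic shared peaks were broad at E10.5, and the partner was a narrower peak within them. Their median width was 976 bp (quartiles 622 and 1497 bp, range 139 to 15904 bp). The partners had a median width of 426 bp (quartiles 260.0 and 685 bp), and the median ratio of partner width to peak width was 0.475. In 86.3% (85.5 to 87.0%) the partner lay wholly inside the E10.5 peak, and in 7.26% (6.72 to 7.83%) it was the wider one. The summits, the points of highest signal, were a median of 25 bp apart and within 100 bp of each other in 82.1% (81.3 to 82.9%). Most peaks, 94.1%, met 1 E11.5 peak, and 500 met more than 1. For those 500 only the partner is given below, which leaves out the signal of the other E11.5 peaks. For comparison, the median width was 897 bp for distal shared peaks between genes, 1536 bp for shared promoter peaks and 506 bp for distal intragenic peaks of E10.5 alone.

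**Figure D1:**
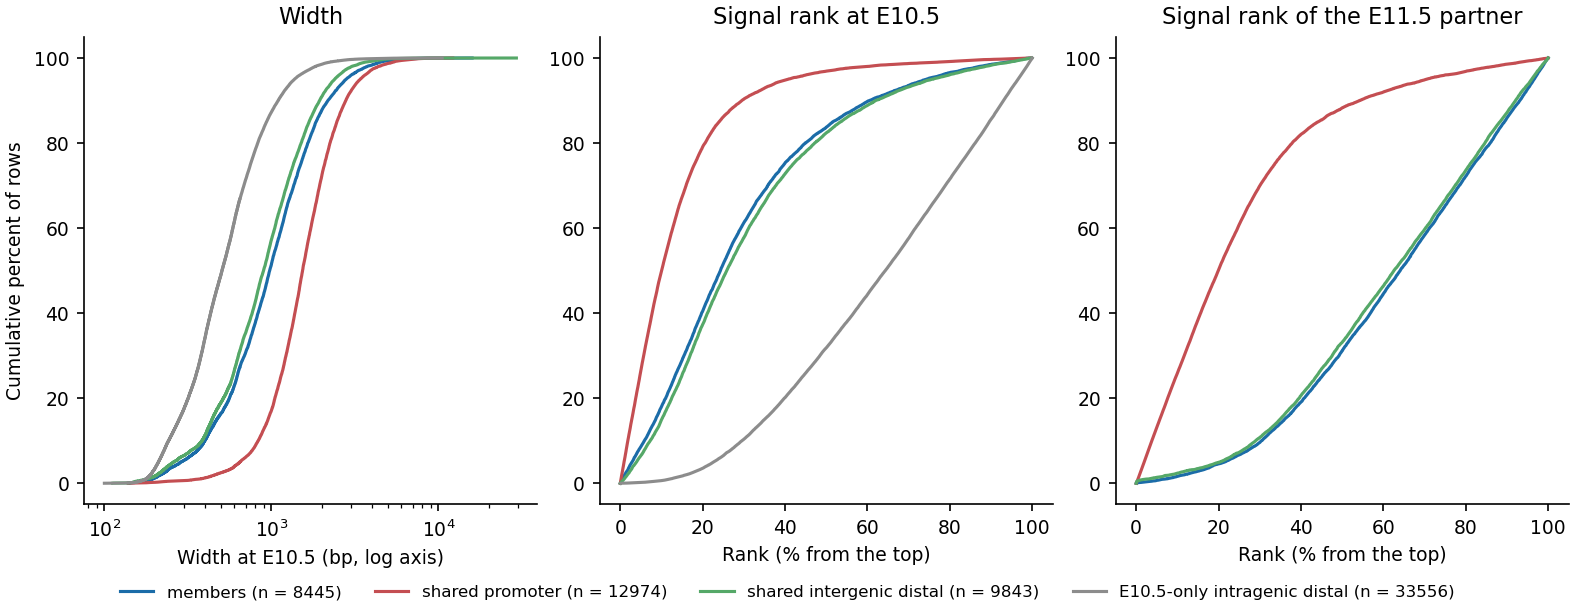
Cumulative percent of peaks against width at E10.5 (bp, log axis), rank of the signal value at E10.5 and rank of the E11.5 partner (percent from the top of each list) for 4 classes of peak. The intragenic shared peaks (members) run close to the shared intergenic ones, with E10.5 median ranks of 24.3% and 25.9% and partner ranks of 64.1% and 62.6%, while shared promoter peaks rank higher in both lists.

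Their signal ranked high in the E10.5 list and below the middle of the E11.5 list. The median signal was 2225 (quartiles 1183 and 4077) at E10.5 and 455 (292 and 878) for the partners. The median rank was 24.3% (23.8 to 24.7%) for the E10.5 peaks and 64.1% (63.3 to 64.8%) for the partners, beside 10.1% and 19.9% for shared promoter peaks. With the E10.5 list reduced by signal to the number of E11.5 peaks, 6072 of the peaks were left, ranked anew in the shorter list. Their median ranks were 48.4% and 57.9%, a narrower gap. The cut itself raises every rank percent at E10.5, so this gap does not tell what set the ranks apart. Above the median of its own list stood 83.7% of the peaks at E10.5 and 31.1% of the partners, and 28.7% stood above it in both. A share of 54.9% (53.9 to 56.0%) was above the median at E10.5 and below it at E11.5, and 201 peaks had the opposite order. The top 10% of the list held 1520 of the peaks at E10.5 and 136 of the partners, and 110 were there in both lists.

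**Figure D2:**
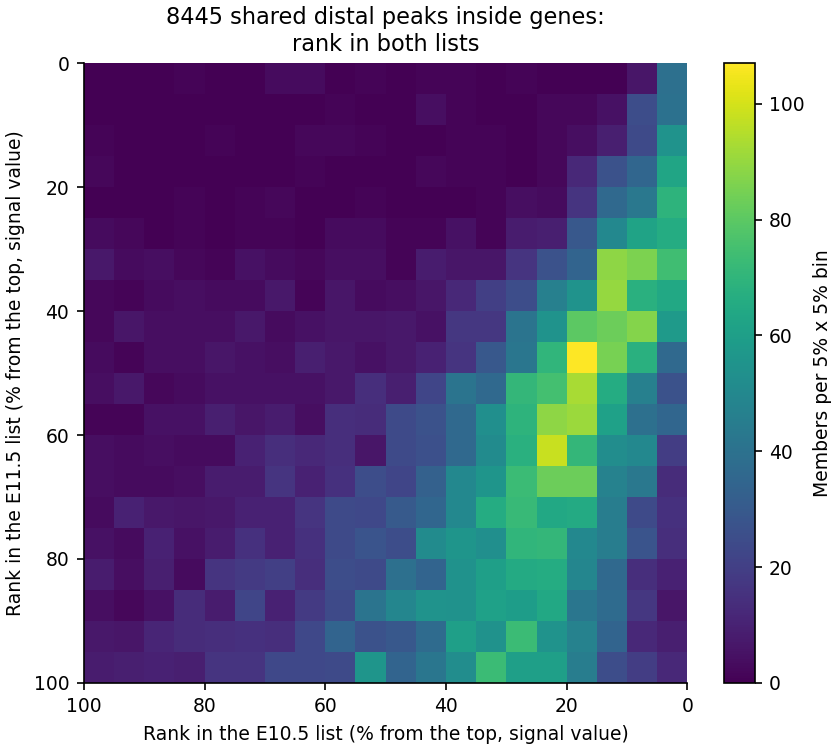
Number of intragenic shared peaks in bins of 5% by 5%, by rank in the E10.5 list (x) and rank of the partner in the E11.5 list (y), both in percent from the top by signal value. The densest bins lie at E10.5 ranks of 10 to 25% and E11.5 ranks of 30 to 65%, and the corner that is high at E11.5 and low at E10.5 is nearly empty.

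Ranks in both lists went together to a limited degree. Spearman's rho across the 8445 peaks was 0.49 for signal, the same as for 9843 shared intergenic peaks, and 0.72 for 12974 shared promoter peaks. It was 0.25 for signal per bp, and widths correlated at 0.55. Signal and width at E10.5 correlated at 0.89, and all of these points come from the same pair of lists, so rho is a description. Among distal intragenic peaks, 87.9% (86.2 to 89.3%) of those in the highest 10% of the E10.5 list were shared, and 2.60% (2.19 to 3.08%) of those in the lowest. The partners' median rank was 37.4% for the first of these groups and 71.4% for the other, with 79.7% in between, in the 6th group of 10.

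**Figure D3:**
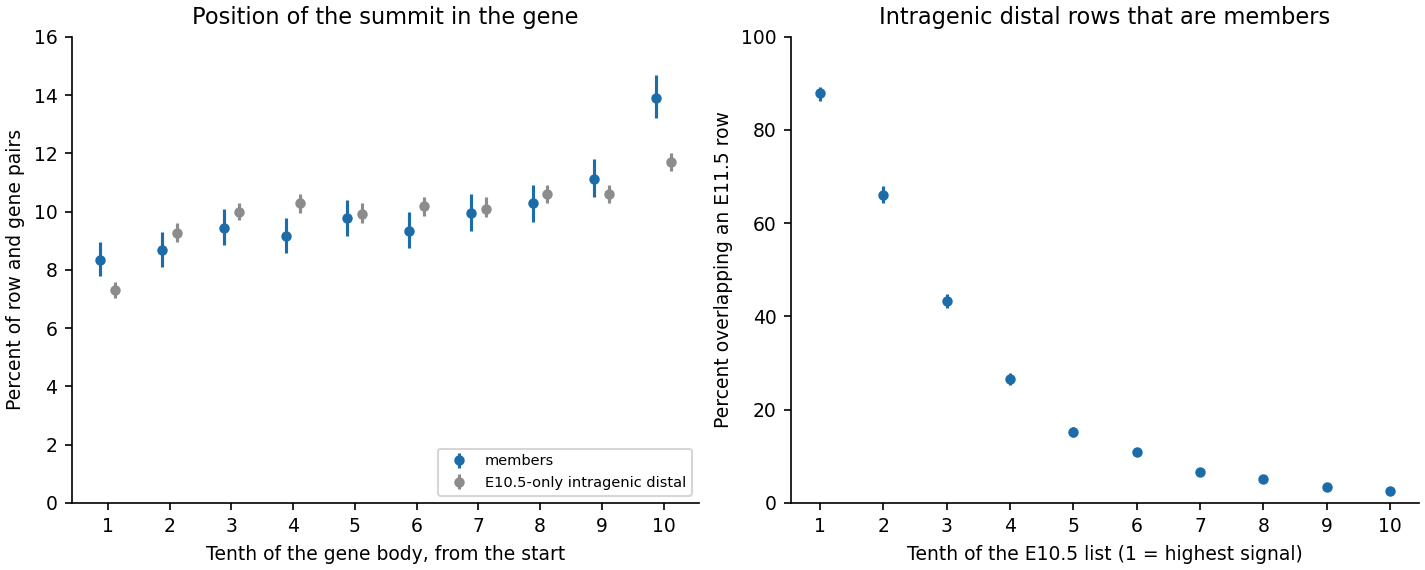
Left, percent of peak and gene pairs in 10 equal parts of the gene body from the start, for intragenic shared peaks (members) and for distal intragenic peaks of the E10.5 list only. Summits past the gene end are counted in the last part. Right, percent of distal intragenic E10.5 peaks that overlap an E11.5 peak, in 10 equal parts of the E10.5 list. Bars are 95% Wilson intervals, and the share falls from 87.9% to 2.60% from the highest to the lowest signal.

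Most peaks were far from a start site and from each other. The median distance to the nearest protein-coding start was 28958 bp. Between 1 and 5 kb lay 15.9% of them, between 5 and 20 kb 25.8%, between 20 and 100 kb 38.4%, and further away 19.9%. Of all distal intragenic peaks, 26.9% (25.7 to 28.2%) were shared in the nearest of these 4 classes and 21.6%, 17.9% and 19.1% in the others. Within 5 kb of another intragenic shared peak lay 1692 of them, and the median gap was 27048 bp. Along the gene body the last of 10 equal parts held 13.9% (13.2 to 14.7%), beside 11.7% (11.4 to 12%) for intragenic peaks of E10.5 alone. The 227 shared peaks just beyond the 1 kb limit, at 1000 to 1500 bp, had a median width of 1039 bp and ranks of 26.3% and 51.5%. The 294 just within it, at 500 to 1000 bp and overlapping a gene body, had 972 bp, 30.1% and 53.2%.

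The peaks lay in 4421 host genes, which is 21.4% of 20665 autosomal protein-coding genes. Of these, 2685 held 1 peak, 860 (4.16% of all genes) held 3 or more, and 58 held 10 or more, which together had 710 peaks. Host genes had a median length of 61.7 kb, and genes without such a peak 13.0 kb. The share of genes that were hosts was 8.09% up to 20 kb, 26.7% from 20 to 100 kb, 66.0% from 100 to 500 kb and 91.7% above that. Per 100 kb of gene body these 4 classes held 1.19, 0.882, 0.904 and 0.577 peaks. In 123 cases a peak lay in more than 1 gene and was counted for each.

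**Figure D4:**
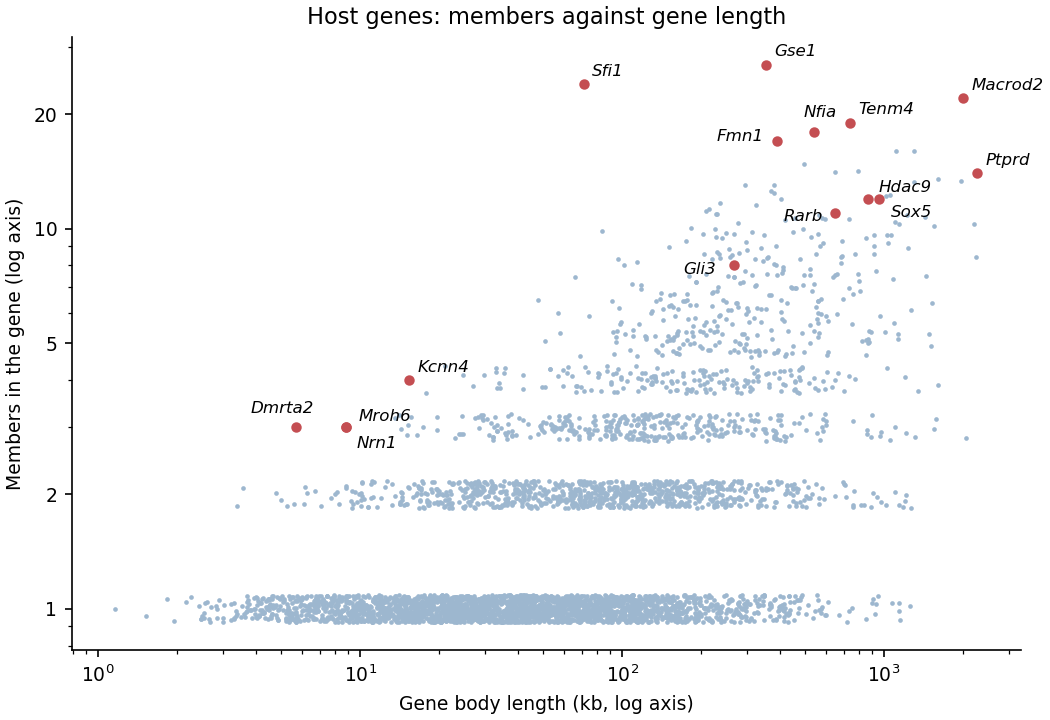
Intragenic shared peaks (members) per host gene against gene body length in kb, both on log axes, with points spread slightly around whole numbers and named genes in red. Gse1, with 27 peaks in 353 kb, and Sfi1, with 24 in 71.5 kb, stand above genes of similar length, and Dmrta2, Mroh6 and Nrn1 are short genes with 3 each.

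Gse1, a coiled-coil component of a corepressor complex, held the most, 27 peaks among 98 distal E10.5 peaks in its 353 kb (chr8:120228501-120581383). Their signal ran from 1646 to 21885 at E10.5, with ranks from 0.0992% to 31.2%, and the partners ranked from 5.61% to 96.9%. All 27 ranked nearer the top of the E10.5 list than their partners did of the E11.5 list, as did 92.6% (92.1 to 93.2%) of all intragenic shared peaks. The highest, chr8:120273620-120278905, had 21885 and a partner of 5619.6. A neighbour in the same gene, chr8:120279955-120286322, had 15454 and a partner of 332. High signal at E10.5 thus went with partners of very different signal within 1 gene.

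Sfi1, which encodes a centrin-binding protein of the centrosome, had the opposite order. All 24 of its distal E10.5 peaks were shared, and 22 of them ranked nearer the top at E11.5. The median rank was 58.2% at E10.5 and 27.9% for the partners. The widest of all intragenic shared peaks was here, chr11:3184169-3200072 with 15904 bp, with a signal of 51974 at E10.5 and 86738 for a partner of 15975 bp. Of the other 23, chr11:3140494-3145069 had the highest signal, with 6875 and 8602. In 2 cases a pair of neighbouring E10.5 peaks met the same E11.5 peak. How uniquely reads map in Sfi1 was not examined here.

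The next hosts by number were long genes. Macrod2, a macrodomain hydrolase, held 22 in 1998 kb, at median ranks of 26.0% and 58.3%. Tenm4, a teneurin adhesion protein of the cell surface, held 19 at 6.21% and 50.3%. Nfia, a nuclear factor I transcription factor, held 18 of 64 distal peaks at 11.2% and 46.5%. Fmn1 held 17. Auts2, Dnm3 and the phosphodiesterase gene Pde4d held 16 each, and Nav2, Pdzd2, Ptprd, Ptprn2 and Tenm3 held 14 each. In Dnm3 the peak with Dnm3os and Mir199a-2 had the highest signal at both stages, 12362 and 5456, and the other 15 partners had between 218 and 1772.

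Density per length picked other genes. Among genes with at least 3 such peaks the median was 2.32 per 100 kb. Dmrta2, a doublesex-related transcription factor gene of 5.70 kb, had 52.6 per 100 kb. Its 3 peaks had signals of 2153, 1987 and 545, with partners of 1139, 739 and 369. The last of them lay mostly past the end of the gene, and its partner lay outside gene bodies. Mroh6 followed with 34.0, and its strand was not given in the tables used, so both of its ends counted as starts. Nrn1, which encodes neuritin, a membrane-anchored protein that promotes neurite growth, had 33.9. Its 3 peaks had 4110.3, 762 and 432, and the partner of the last, at 201, stood close to the smallest value of the list. Sfi1 had 33.6.

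Others among the 10 densest genes were Kcnn4 (26.0 per 100 kb), which encodes a potassium channel, Dpf1 (22.0), a BAF complex subunit, Alad (21.3), an enzyme of haem synthesis, Bcl3 (20.9), an IκB family protein, and Zfp219 (19.9). Each had 3 or 4 peaks. With 2 peaks as the minimum only 4 of the 10 densest genes stayed, and Lefty1, a Nodal antagonist, led with 59.2. With 5 as the minimum only Sfi1 stayed, ahead of Unc13a at 12.6 and Ddc at 11.9. The order by density therefore depends on the minimum.

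**Figure D5:**
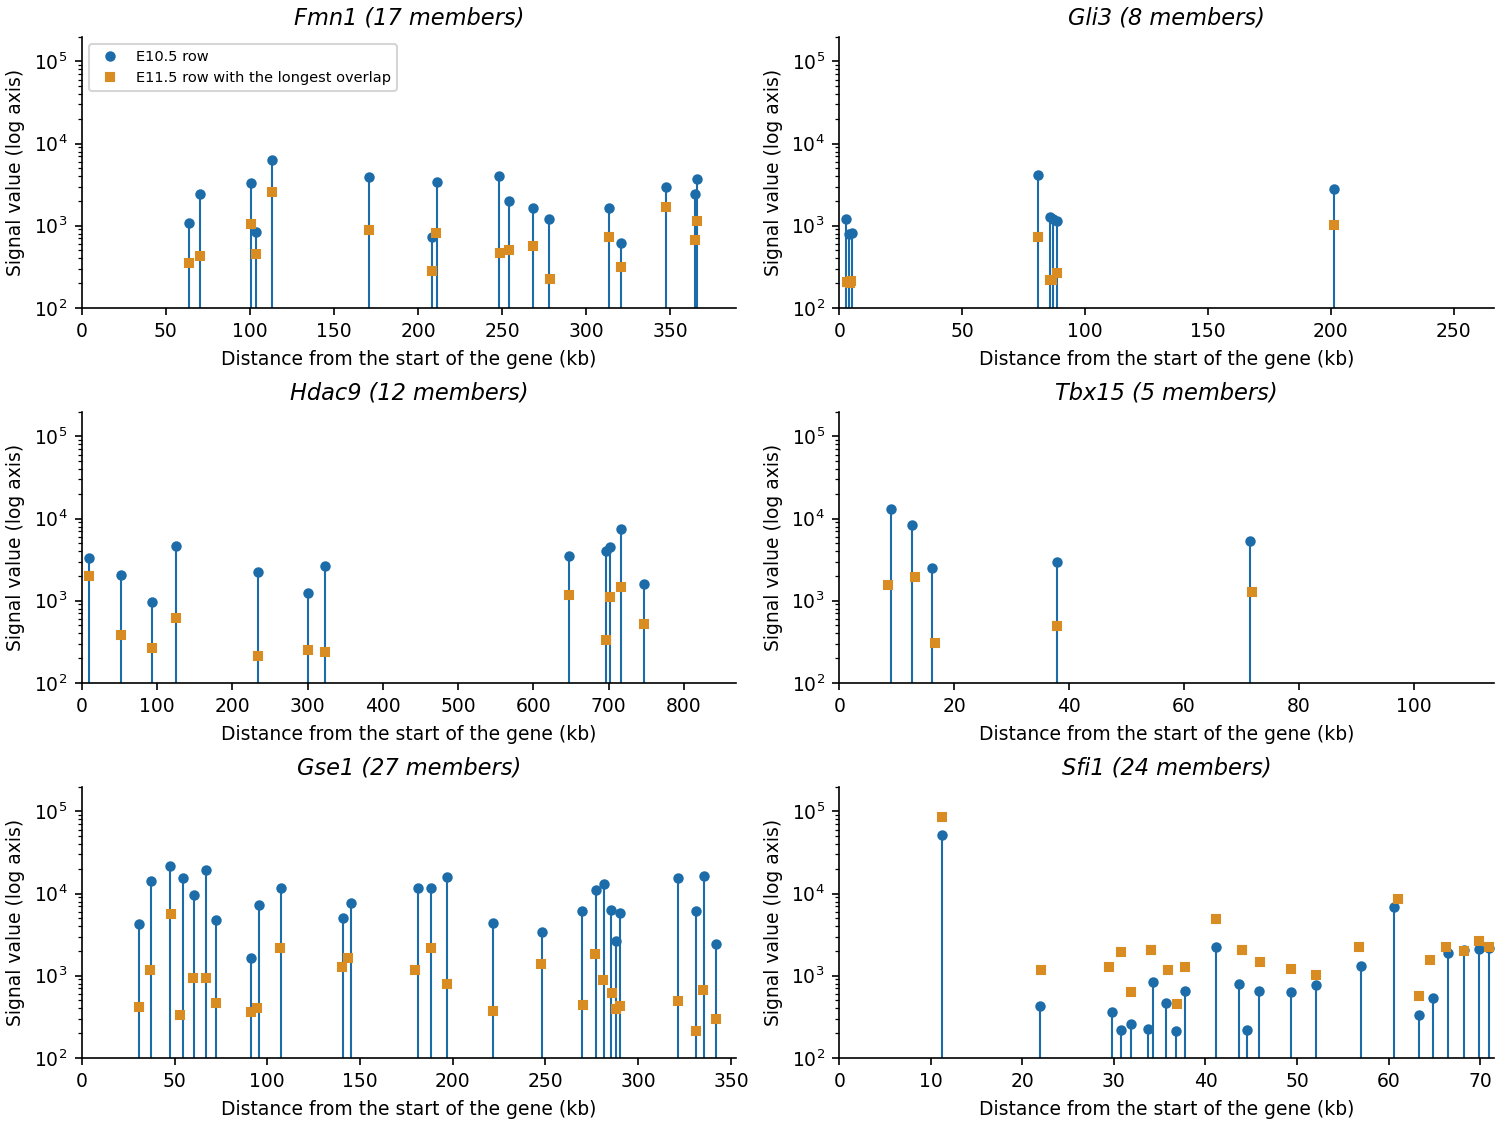
Signal value on a log axis of each intragenic shared peak at E10.5 (circles) and of its E11.5 partner (squares) against distance from the gene start in kb, in 6 host genes. In Fmn1, Gli3, Hdac9, Tbx15 and Gse1 every partner has the lower value, and in Sfi1 most partners have the higher one.

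Among genes known to harbour enhancers of another gene, 4 of 6 were hosts, beside 21.4% of all genes and 66.0% of those between 100 and 500 kb. Of the 96 distal E10.5 peaks in these 6 genes 35.4% were shared, beside 20.1% of all distal intragenic peaks. Fmn1 alone held 17 of the 34 shared ones, and the share differed between the genes. Fmn1, a regulator of actin and microtubules, held 17 of its 25 distal E10.5 peaks as shared ones. Their signal ran from 624 to 6276, and the partners from 223 to 2592. The peak chr2:113440184-113441715 was highest in both lists, at ranks of 6.59% and 22.1%. Hdac9, a class II histone deacetylase, held 12 of 37, with chr12:34199869-34201901 highest at E10.5 (7501, partner 1469) and chr12:34906041-34907791 highest at E11.5 (2013, against 3293 at E10.5). Dync1i1, a dynein chain whose exons are known as enhancers of Dlx5 and Dlx6, held 4 of 20, of which chr6:6005490-6006713 had 5780.2 and 2405. Slc25a13 held 1 of 12. Lmbr1 and Lnpk held none: both distal E10.5 peaks in Lmbr1, including chr5:29314361-29315604 with a signal of 2027, lacked an E11.5 overlap.

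Of 45 genes for limb transcription factors 25 were hosts (55.6%), and their 66 peaks had median ranks of 14.1% and 53.7%. Beside the background for their length, 7 of 26 were hosts up to 20 kb (8.09% of all genes), 10 of 11 from 20 to 100 kb (26.7%) and 8 of 8 from 100 to 500 kb (66.0%). Of the 317 distal E10.5 peaks in these genes 20.8% were shared, beside 20.1% of all distal intragenic peaks. The list was chosen with results of these data known, and its counts are a description.

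The GLI factors, which carry the response to Hedgehog ligands, differed in signal. Gli3, the main repressor of the anterior limb bud, held 8 with signals from 802 to 4093 and partners from 201 to 1009. Of these, 3 lay next to each other near the start of the gene with partners of 204, 201 and 212, just above the lowest signal in the list. Gli2, mainly an activator, held 7 with signals from 4379 to 13355 and partners from 514 to 2704. The signal values of the 2 genes did not overlap at E10.5 and overlapped at E11.5. Signal is a total over a peak, and widths ran from 1561 to 4203 bp in Gli2 and from 424 to 2220 bp in Gli3. Per bp the E10.5 values did overlap, at 2.33 to 3.54 in Gli2 and 1.09 to 3.04 in Gli3. These were 7 of 34 distal E10.5 peaks in Gli2 and 8 of 25 in Gli3.

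Of the T-box genes on the list 5 were hosts, and their signals ranged widely. In Tbx2, a repressor in the limb margins, chr11:85839367-85846816 had a signal of 22044, at rank 0.0941%, and a partner of 3198 at 17.5%. Most of this peak lay beyond the end of the gene, and its partner lay outside gene bodies. Tbx4, which acts in hindlimb outgrowth, held a peak of 7693 whose partner, at 202, stood at 99.6%. A second, of 12239 with a partner of 678, overlapped only the last bases of the gene, and its partner lay outside gene bodies. Tbx15, a factor of limb and trunk mesenchyme, held 5, led by chr3:99247555-99251238 with 13204 and a partner of 1546. Its next peak had 8276 and a partner of 1927. By these partners the order of the 2 strongest was reversed between the lists. The first of the 2 peaks also met another E11.5 peak, whose signal is not given here. Tbx5, the forelimb factor, and Tbx18 held 1 peak each near the middle of all intragenic shared peaks, at 29.6% and 19.2%, with partners at 83.7% and 42.6%.

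Other patterning genes showed the same contrast of strong E10.5 peaks and weaker partners. Lmx1b, the LIM homeobox gene of dorsal identity, held 3 with 21131, 12504 and 7048 at E10.5 and partners of 352, 799 and 414. The peaks of 12504 and 7048 each met 2 E11.5 peaks, of which only the partner is given. Pitx1, the hindlimb selector, held 2 with 11967 and 8956 and partners of 912 and 223. The second of these, chr13:55822506-55825782, also overlaps Catsper3 and lies mostly beyond the end of Pitx1, and its partner lies outside gene bodies. Prrx2, a homeobox gene of limb mesenchyme, held 3 with 10737, 6154 and 6821, and partners of 365, 395 and 790.5. In En1, the gene of ventral ectoderm that the study concerns, the single peak chr1:120606891-120607288 was small, with 807 (51.3%) and 313 (78.9%). It was the only distal E10.5 peak in the 5.50 kb of that gene.

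Of 65 genes for limb signals and their transduction 36 were hosts (55.4%), with 85 peaks at median ranks of 12.5% and 57.9%. By length, 3 of 18 were hosts up to 20 kb, 22 of 34 from 20 to 100 kb and 10 of 12 from 100 to 500 kb, beside the same 8.09%, 26.7% and 66.0%. Of the 526 distal E10.5 peaks in the signalling genes 16.2% were shared, beside 20.1% of all distal intragenic peaks. Among ligands, Bmp4 held chr14:46384859-46389200, which covers the Gm15222 window above, with 13828 (0.617%) and a partner of 2519.6 (22.7%). Fgf10, the mesenchymal FGF that starts limb outgrowth, held 3 with 3088, 1669 and 288 and partners of 1186, 1148 and 416, so the weakest had the higher value at E11.5.

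Among receptors, Ptch1, the Hedgehog receptor and a target of its own pathway, held 3. The nearest to a start, chr13:63567263-63569811, had 8806 and a partner of 3961 (12.6%), and the others had 9217 and 7383 with partners of 783 and 1562. Smo, the Hedgehog transducer, held 1 with nearly equal values, 6612 and 6831, which stood at 5.91% and 3%. Fgfr1 held 2 with 9943 and 11483, and partners of 2240.4 and 2492. Ror2, a WNT5A receptor, held 7, and chr13:53193091-53196242 was highest with 10275 and a partner of 577.

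Among nuclear and feedback components, Rarb, a retinoic acid receptor, held the most, 11, led by chr14:16553943-16555897 with 7778 and 2837. Cyp26b1, the enzyme that breaks down retinoic acid in the distal limb, held 2 with 15729 and 10519.6 and partners of 2442 and 1850.4. Tcf7l1, a repressor among the TCF factors of WNT signalling, held 5. The peak over the Gm31391 window, chr6:72675921-72680305, was highest at E10.5 with 15312 and had a partner of 1863. Another, chr6:72710388-72712681, had 12435 and the highest partner, 4200.3. Axin2, a WNT feedback gene, held 4 from 2349.9 to 9230.0, with partners from 259.5 to 1849.6.

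Of 34 genes for skeletal regulators and matrix 20 were hosts (58.8%), at median ranks of 21.3% and 67.1%, beside 21.4% of all genes. By length these were 1 of 7 up to 20 kb, 8 of 16 from 20 to 100 kb, 9 of 9 from 100 to 500 kb and 2 of 2 above that, beside 8.09%, 26.7%, 66.0% and 91.7%. Of the 334 distal E10.5 peaks in the skeletal genes 18.9% were shared, beside 20.1% of all distal intragenic peaks. Sox5, a SOX factor of cartilage, held 12, and the peak over the Gm38531 window, chr6:144208503-144211612, was highest in both lists, with 11235 and 3895. Its other 11 partners had from 208 to 1522. Sox6 held 9, and Runx2, the osteoblast factor, held 6 from 357 to 5253. Col2a1, the collagen gene of cartilage, held 2 neighbouring peaks of 6505 and 6729 with partners of 422 and 1458.

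Very long genes, many but not all of them genes of neurons, were hosts too. Of 30 such genes 27 held a peak (90.0%), beside 91.7% of all genes over 500 kb, and 173 peaks fell in them. Their median width was 630.0 bp and their median ranks 38.6% and 68.3%, beside 976 bp, 24.3% and 64.1% for all intragenic shared peaks. Of the 535 distal E10.5 peaks in these listed long genes 32.3% were shared, beside 20.1% of all distal intragenic peaks. Macrod2 held 22, Ptprd, a receptor phosphatase of synapses, 14, and the neurexin gene Nrxn3 13. Grm7 and Ptprt held 1 each.

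Counts for genes that mark the cell types of a limb stand beside 21.4% of all genes, a share that ran from 8.09% to 91.7% with gene length. Of 12 markers of limb mesenchyme 6 were hosts (Tbx4 with 2, and Lhx9, Meox1, Prrx1, Tbx5 and Twist2 with 1 each), at median ranks of 11.9% and 63.1%. Of 14 endothelial markers 6 (42.9%) were hosts, led by Fli1 with 3, at 18.2% and 44.6%. Of 14 blood markers 6 (42.9%) were hosts, led by Ank1, a protein of the red cell skeleton, with 5, at 20.6% and 40.8%. Surface ectoderm had 3 of 14 (Tfap2a, Grhl3 and Trp63), the same 21.4% as all genes, muscle precursors 1 of 10 (Pax3), and nerve and glia 4 of 12 (33.3%), the last at 66.9% and 84.5%. Up to 20 kb (8.09% of all genes), hosts were 0 of 7 ectoderm, 0 of 7 muscle and 1 of 8 nerve markers. In the same class were 1 of 4 mesenchyme, 2 of 4 endothelial and 3 of 8 blood markers. From 20 to 100 kb (26.7%) they were 2 of 5 ectoderm, 1 of 2 muscle and 2 of 3 nerve markers. Here mesenchyme had 5 of 8, endothelium 1 of 6 and blood 2 of 4. From 100 to 500 kb (66.0%) endothelium had 3 of 4, and blood and ectoderm 1 of 2 each. Muscle there had 0 of 1 and nerve 1 of 1. Over all marker genes of a type the shared part of distal E10.5 peaks was 12.3% for limb mesenchyme, 12.2% for endothelium and 44.4% for blood. It was 13.2% for surface ectoderm, 2.94% for muscle precursors and 35.7% for nerve and glia, beside 20.1% of all distal intragenic peaks. In a mixed tissue fewer cells of a type and less accessibility per cell cannot be told apart. The part that these cell types have in any peak was not tested.

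The extremes of signal were few and uneven. A peak in Myo3a, a motor protein of sensory hair cells, was highest at E10.5 (chr2:22587243-22590577), with 63808 and a partner of the same 3335 bp with 62965. Its signal per bp was 19.1, beside a median of 2.33. Peaks in Zc3h7a, Lars2, Cdk8 and Chl1 had from 16 to 19.1 per bp in widths of 335 to 519 bp. Copz1, a coatomer subunit gene, held a peak of 32889 with a partner of 4289 outside gene bodies, and Tmem267 one of 31114 with a partner of 35370.3. The Copz1 peak met 4 E11.5 peaks, of which only the partner is given. The peaks in Gm40367 and Gm40365 were modest at E10.5, with 509 and 1152, and met broad E11.5 peaks of 44934 and 34961 that reach a promoter. How uniquely reads map at any of these extreme peaks was not examined here.

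Width and rank differed most in a handful of genes. After Sfi1 the widest peaks lay in Prdm16, a zinc finger regulator (12354 bp, 24981), Zmiz1 (11212 bp, 18999), Tmem267 (8855 bp) and Gse1 (8585 bp, 15517). The partners in Prdm16 and Zmiz1 were 521 and 531 bp wide with 216 and 275. The rank stood furthest above that of the partner for peaks in Ngfr, a neurotrophin receptor (13759 and 208), in Poc1a, a centriole protein (17115 and 209.9), in Prdm16 (2 peaks) and in Tbx4. The peaks in Ngfr and Zmiz1 each met 2 E11.5 peaks, of which only the partner is given. The opposite order was most marked in Pcmtd2 (203 and 3265), Dlgap1 (218 and 3640.1), Serbp1 (321 and 8033), Usp54 (228 and 3088) and Sfi1 (221 and 2051). In Dlgap1 and Serbp1 the partner reached to within 1 kb of a start site.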

How the data were processed

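ATAC-seq peaks of 4 samples, 2 per stage, were analysed as 2 lists, each named for both replicates of a stage. Groups came from the sample titles. Per the file headers the lists are narrowPeak on mm10. The submitters' processing notes name cutadapt, Bowtie2, SAMtools, deepTools and Genrich, without role or version. How replicates were combined and whether read ends were shifted for Tn5 are not given in the sources used here. The authors deposited a signal value per peak (all at least 200), a score that equals signal per bp times 1000, capped at that number, and a −log10 p-value. The deposited q-value column held -1 in 100% of peaks and was not used. Depth per sample is unknown.

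From these values membership, host genes, widths and ranks were computed with Python 3.11.15, pandas 2.3.3, numpy 2.4.6 and scipy 1.17.1, with figures from matplotlib 3.10.9. Gene bodies came from a RefSeq table of GRCm38.p6 (mm10 coordinates), with 21887 protein-coding genes. Start sites, alternative ones included, and strand came from the RefSeq start windows for 17492 of these genes. For 4044 more the strand came from GENCODE M1 by symbol, and for 351 without strand both ends counted as starts, giving 32854 start sites. Distance was measured from the edge of a peak. Exons, introns and an mm10 sequence were not used here. Shares have 95% Wilson intervals, and medians have exact binomial intervals of order statistics. The steps that find overlaps and distances to start sites were tested on simulated lists. No test between stages was possible.

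The peaks and the gene lists were chosen with earlier results of these data known. Genes were named by rule: the 10 hosts with the most peaks (14 with ties), the 10 densest with at least 3, the 5 peaks of highest signal in each list, the 5 widest, the 5 with the largest rank difference in each direction, and list genes, of which a few are not reported here. Genes with microRNA hairpins, the peaks of highest signal per bp, the printed windows and the densest genes under other minimums were chosen after their values were seen. Alternatives varied the overlap, the distance, the start sites, the −log10 p, the number of E10.5 peaks and the chromosomes.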

Additional observations from a re-analysis of the deposited data

Results flagged for a closer look

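The rule takes autosomes only, and 111 peaks of the X chromosome met the rest of it, a signal outside the regions described. They were 28.2% (95% Wilson interval 24.0 to 32.8%) of 394 distal intragenic E10.5 peaks on X and Y, and none of them lay on Y. They are listed because they lie outside the rule and exceed the 0.761% that a count of 0 allows. Any handful of overlaps passes that limit, and overlap is part of the rule, so the share is a description. They lay in 84 genes, with a median width of 659 bp and median ranks of 35.2% and 66.0%, here counted in lists with X and Y included. Bcor, which encodes a corepressor that partners BCL6, held 8, Mid1, a microtubule-bound ubiquitin ligase, and Nhsl2 held 5 each, and the dystrophin gene Dmd and the glypican gene Gpc3 held 3 each. The difference of this share from the autosomal 20.1% was not tested.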

How the results depend on the processing

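Of 83 values recomputed under 17 alternatives, 48 moved by less than the interval of the main value (counts by less than 1.5 times) and 35 by more. No paired analysis was possible because a stage has a single list made from its replicates together, and leaving out a replicate was not possible either. A reciprocal overlap of 50% gave 3793 peaks, 9.03% shared, 2489 host genes, a width of 765 bp and ranks of 29.0% and 52.5%. A −log10 p of at least 5 in both lists gave 2849, 13.7%, 2097, 1299 bp, 25.4% and 72.3%. Here the share and ranks were counted within the lists left by that limit, so these ranks cannot be set beside the main ones. With the E10.5 list reduced to the number of E11.5 peaks, the E10.5 ranks were recounted in the shorter list. The share was then 51.3%, the width 1215 bp and the ranks 48.4% and 57.9%. With outer start sites only, chosen after seeing the data, these were 22.2%, 1035 bp, 22.5% and 60.1%. The share was 19.7% with the E10.5 summit inside an E11.5 peak, 19.7% with start sites of any gene, 19.6% with both gene ends (width 961 bp) and 19.2% beyond 5 kb (E11.5 rank 65.1%). By signal per bp the ranks were 23.7% and 62.7%. The last of 10 gene parts held 12.8% in hosts over 20 kb. With at least 3 peaks the hosts were 9 limb factors, 9 signalling genes and 7 skeletal genes, beside 4.16% of all genes. With the stricter −log10 p, 22 signalling, 11 skeletal and 17 of the listed very long genes were hosts, beside 10.1% of all genes. The causes of these shifts were not tested. Unknown depth limits every comparison of the 2 lists, which have 1 value per stage.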

Other observations

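Of the 10 densest genes with a minimum of 2 intragenic shared peaks, 6 held exactly 2 and so were left out of the order above. Lefty1, a Nodal antagonist, had 59.2 per 100 kb in 3.38 kb, Nkx2-1, a homeobox gene of lung and thyroid, 40.2 in 4.97 kb, and Zfp36l1, which binds AU-rich transcripts, 38.1 in 5.25 kb. Duxf3 had 55.8, Speer4c 41.7 and Gstt2 35.9. With a minimum of 5, Nfix, a nuclear factor I gene, had 8 peaks in 96.5 kb, and Ddc, the aromatic amino acid decarboxylase, 10 in 84.0 kb.

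By chromosome, between 15.0% (chromosome 19) and 23.1% (chromosome 3) of distal intragenic E10.5 peaks were shared. The 1277 distal intragenic E11.5 peaks without an E10.5 overlap had a median width of 327 bp and a median rank of 71.3%, beside 419 bp and 64.9% for the 9351 that were shared.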
